A study of Mus musculus with 8 samples.

Results

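The 8 genes described here belong to 3 machineries that act with RNA polymerase II, and they were followed at their polyadenylation sites in mouse brain: the Integrator subunits Ints3, Ints6, Ints9 and Ints11, the PAF complex subunits Cdc73 and Leo1, and the histone pre-mRNA factors Lsm10 and Lsm11. They were found by gene symbol and make up 8 of the 10060 genes in either deposited table. One table counts reads at 2 sites of the 3′-most exon, called proximal and distal, and all 8 were listed there and passed the read filter. The other sets a site in an upstream exon against the 3′-most exon, and 3 members (Ints3, Ints6 and Cdc73) were listed and passed there.

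The tissue was total brain of mice killed at postnatal day 50, from 5 Cstf2D50A mutants (Cstf2 D50A below) and 3 wild-type littermates, all untreated and of the C57BL/6NCrl background, a congenic colony kept by backcrossing. The mutation replaces an aspartate with an alanine at residue 50 of CSTF2. This protein is part of the cleavage stimulation factor, and its RNA recognition motif, which holds the residue, contacts the RNA beyond the cleavage site. Libraries were made with QuantSeq REV. It starts complementary DNA synthesis at the poly(A) tail, reads therefore mark transcript 3′ ends, and the values are read counts per site. The labels give the genotype of each animal and neither a sex, a batch nor a pairing, so that p-values measure the spread between these 8 animals and whatever was shared in handling them. Whole brain mixes all its cell types.

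Integrator is a multi-subunit complex that binds RNA polymerase II near promoters, cuts nascent small nuclear RNAs to form their 3′ ends and ends transcription early at many protein-coding genes. The PAF complex travels with elongating polymerase, and its subunits promote histone modification and transcript 3′ end formation. Replication-dependent histone mRNAs end in a stem-loop without a poly(A) tail, and their cut is made by a machinery around the U7 small nuclear ribonucleoprotein, whose ring contains LSM10 and LSM11 in place of SmD1 and SmD2. CSTF2 is itself known as a component of that histone cleavage complex. Those histone mRNAs are made when DNA is replicated, and most neurons no longer divide.

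The 3′-most exon table held 10177902, 11984749, 12603351, 13449054 and 11498231 reads in Cstf2 D50A 1 to 5, and 9616953, 17530761 and 11858975 reads in wild type 1 to 3. The upstream exon table held 7768925 to 10279635 reads in mutants and 7075383 to 13145966 in wild type. Cstf2 itself had 322.3 to 427.9 CPM (reads scaled to a common library total) in Cstf2 D50A and 332.6 to 396.2 CPM in wild type. Its counts say nothing about a coding exchange and are no check of the genotypes. Neuron markers were present in every library, with 6 of 8 listed in the 3′-most exon table at a summed 4229 to 6510 CPM in mutants and 3730 to 5028 CPM in wild type. Markers of cerebellar granule cells (10 of 14 listed, none at 0 in every library) summed to 544.7, 526.2, 591.6, 631.3 and 2227 CPM in Cstf2 D50A 1 to 5, against 2860, 2238 and 2015 CPM in wild type 1 to 3. Mutants 1 to 4 thus stood apart from mutant 5 and the wild-type libraries in these markers, and 9 of the 10 had a lower fitted level in mutants at an unadjusted edgeR p under 0.05. Over all genes of that table the share was 7.14%. Purkinje cell markers (6 of 10 listed) divided the libraries in the same way, at 718.3, 717.1, 719.9, 695.7 and 1567 CPM in the mutants and 1951, 1612 and 1498 CPM in wild type. In such bulk tissue, fewer cells of a type and less RNA per cell cannot be told apart. Values without mutant 5 are given below beside the results that divide the libraries in a like way, and the part of these markers in them was not tested. Without mutant 5, every mutant left had low granule cell markers (526.2 to 631.3 CPM) and every wild-type library high ones (2015 to 2860 CPM). In that setting a difference by genotype cannot be told from a difference by these markers. Astrocyte marker sums (4 of 8 listed) divided all 8 libraries by genotype, at 3077 to 3562 CPM in mutants and 3850 to 4169 CPM in wild type. With all libraries, a difference by genotype thus cannot be told from a difference by astrocyte markers.

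No member of the 3 machineries passed the adjusted test between the genotypes, either in which site was used or in how much RNA was measured. In site usage, tested by edgeR's quasi-likelihood method with Benjamini-Hochberg adjustment over all pairs of a table, 0 of 8 members within the 3′-most exon and 0 of 3 against an upstream exon passed 0.05. The lowest edgeR adjusted p-values were 0.368 (Lsm10) and 0.353 (Cdc73). Over all genes edgeR called 0% of the 7876 and 6001 pairs tested, while DESeq2 called 0.267% and 0.0833% of them and likewise none of the members. The edgeR count in the upstream exon table depended on single libraries, since 434 pairs were called without mutant 5 and 260 without wild type 3, again with 0 members among them. At an unadjusted p under 0.05, 0 of the 11 member pairs differed in usage by edgeR, DESeq2 or limma. Of all pairs in the 3′-most exon table, 13.6% had such a p by edgeR, 13.1% by DESeq2 and 12.1% by limma, and in the upstream exon table the shares were 15.3%, 10.7% and 12.5%. The same tests of the summed level called 0 of 8 and 0 of 3 members and 0% of all genes by edgeR, and without mutant 5 they called 69 and 64 genes, with 0 members among them. Ints9 alone had an unadjusted edgeR p under 0.05 in its level, 1 of 8 against 14.6% of all genes, which is close to the background. The share of reads at the second site overlapped between the genotypes in all 11 pairs, whereas 4.15% and 5.88% of all pairs in the tables did not overlap.

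**Figure D1:**
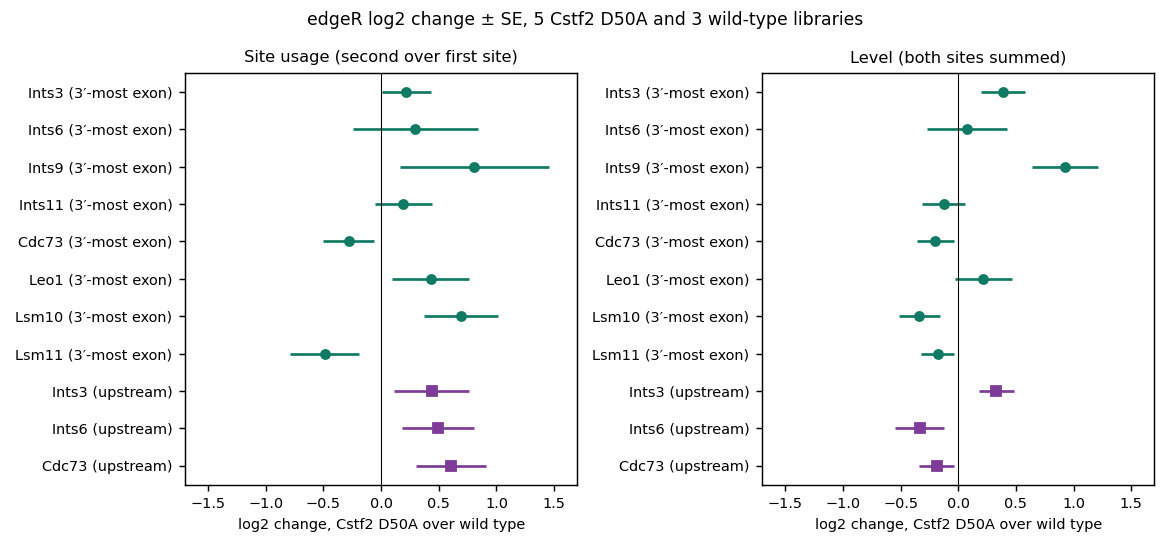
edgeR log2 change (Cstf2 D50A over wild type) with its standard error for site usage, left, and for the level of both sites summed, right, one line per member and table (circles, 3′-most exon table; squares, upstream exon table). Ints9 has the largest fitted values in both panels, 0.81 in usage and 0.93 in level, and no member passed the adjusted threshold.

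The site pairs of the 8 genes differ widely in how far apart they lie. Over all 7951 pairs in the 3′-most exon table the proximal and distal sites lay a median of 629 bases apart (quartiles 139 and 1803). On the mm9 build, whose positions the files give without a chromosome, the closest member pair is that of Ints3 (positions 90195340 and 90195306, 34 bases), followed by Leo1 (75314173 and 75314239, 66 bases), Ints9 (65658512 and 65658669, 157 bases) and Ints11 (155262978 and 155263213, 235 bases). Lsm10 (125775824 and 125776467, 643 bases) lay near the middle of all genes. The widest pairs are those of Lsm11 (45744590 and 45741771, 2819 bases), Cdc73 (145450750 and 145445931, 4819 bases) and Ints6 (63312402 and 63295157, 17245 bases), and 99.7% of all pairs are closer than that of Ints6. A group of 4 (Leo1, Ints9, Ints11 and Lsm10) run toward increasing positions and the other 4 toward decreasing ones. Read shares span nearly the whole scale as well: Lsm10, Cdc73 and Ints3 ended mainly at the proximal site, Ints11 about equally at both, and Ints6, Ints9, Leo1 and Lsm11 mainly at the distal site, in both genotypes. Over all tested pairs the wild-type share of the distal site had a median of 52% (quartiles 17.8 and 84.7%).

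**Figure D2:**
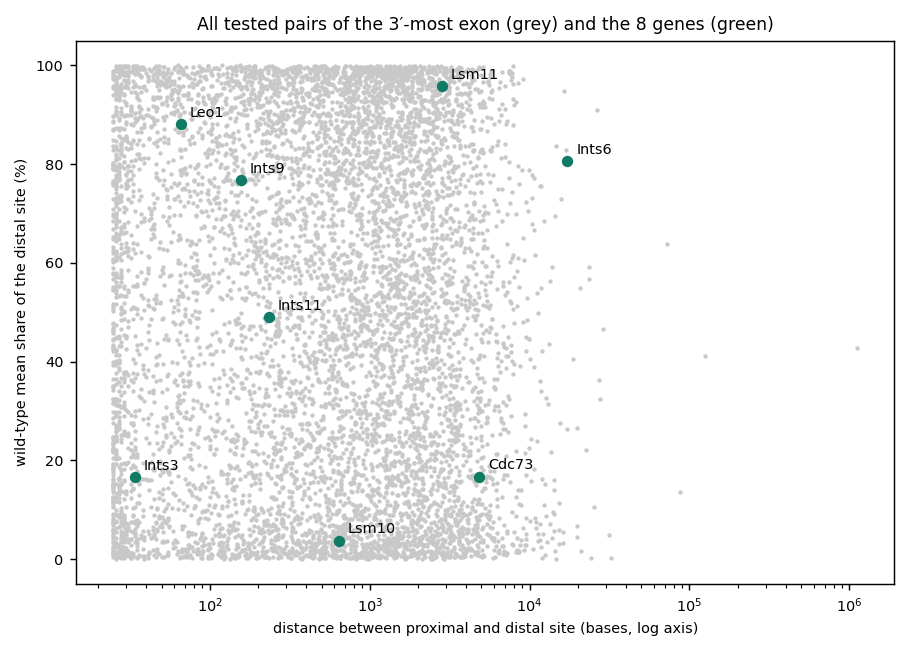
Distance between the proximal and the distal site (x axis, bases, log scale) against the mean share of reads at the distal site in wild type (y axis, %), for all tested pairs of the 3′-most exon table in grey and the 8 genes in green. The members lie from 34 bases (Ints3) to 17245 bases (Ints6) and from 3.75% (Lsm10) to 95.8% (Lsm11).

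Ints11 encodes the metallo-β-lactamase subunit that cuts RNA for Integrator, a relative of the polyadenylation endonuclease CPSF73. Its distal site held 57.4, 59.4, 53.0, 48.3 and 43.6% of its reads in Cstf2 D50A 1 to 5 and 48.4, 46.1 and 52.5% in wild type 1 to 3. The mutants spread over a wider range than the wild-type animals and included both the highest and the lowest share. The means were 52.3 ± 6.50% in mutants (SD, n = 5) and 49.0 ± 3.20% in wild type (SD, n = 3), with an edgeR log2 change in usage of 0.19 (SE 0.246, adjusted p = 0.696). The summed level stood at 36.1, 31.3, 39.6, 30.0 and 47.3 CPM in Cstf2 D50A 1 to 5, against 42.7, 46.5 and 31.5 CPM in wild type 1 to 3. These ranges overlapped almost entirely, and the log2 change was -0.13 (SE 0.187, edgeR adjusted p = 0.707). Within the mutants, number 5 had the most Ints11 RNA and the lowest distal share, and without it the usage change was 0.32 (edgeR adjusted p = 0.364). Single libraries moved it the other way too, to 0.09 without mutant 2 and 0.11 without wild type 2, and the level change ran from -0.28 without wild type 3 to -0.02 without wild type 2. The annotated Ints11 locus overlaps Pusl1, a pseudouridine synthase gene that is also listed in the tables, and no source used here says whether the authors counted by strand, so reads of the pair may not be fully separate.

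Ints9, the subunit that pairs with INTS11 in the cleavage module, had the largest fitted changes of the group. Its distal site had 12.6, 12.1, 11.1, 14.4 and 5.74 CPM in Cstf2 D50A 1 to 5, against 3.69, 3.77 and 8.60 CPM in wild type 1 to 3. Mutants 1 to 4 lay above every wild-type library, while mutant 5 lay below wild type 3. The proximal site held few reads, 11, 10, 25, 35 and 38 in the mutants and 8, 29 and 24 in wild type. The summed level averaged 13.1 ± 2.76 CPM in Cstf2 D50A (SD, n = 5) and 6.88 ± 3.22 CPM in wild type (SD, n = 3), an edgeR log2 change of 0.93 (SE 0.287, unadjusted p = 0.00927, adjusted p = 0.338). An exact two-sided permutation test of the level over the 56 assignments gave p = 0.0357, not adjusted for the number of members. By site, the edgeR log2 change was 1.07 at the distal site (SE 0.356, adjusted p = 0.36) and 0.31 at the proximal site (SE 0.445, adjusted p = 0.726). By edgeR 0% of all 15752 sites tested there were called (113 without mutant 5 and 40 without wild type 3, with no member among them), and 7.3% had an unadjusted p under 0.05 with a higher level in mutants.

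The share of Ints9 reads at the distal site was 92.4, 93.8, 84.8, 85.3 and 62.7% in Cstf2 D50A 1 to 5 and 80.5, 68.5 and 81.4% in wild type 1 to 3. Mutants 1 to 4 again lay above all wild-type values and mutant 5 below all of them. The means were 83.8 ± 12.4% in mutants (SD, n = 5) and 76.8 ± 7.21% in wild type (SD, n = 3) and did not differ beyond this spread (exact permutation p = 0.464; usage log2 change 0.81, SE 0.645, edgeR adjusted p = 0.528). Mutant 5 is also the mutant whose granule cell markers are at the wild-type level. Without it the usage change was 1.28 (edgeR adjusted p = 0.103) and the level change 1.03 (edgeR adjusted p = 0.106). Without wild type 2 the usage change was 0.43 (edgeR adjusted p = 0.908) and the difference in mean share fell to 2.84 percentage points, against 6.99 with all libraries. Markers of neurons and of endothelium with pericytes ordered the libraries in a like way: mutant 5 was the lowest mutant in both (4229 and 206 CPM), and wild type 3 the highest wild type (5028 and 360.6 CPM). The part of these markers in the Ints9 values was not tested. Wild type 3 had the highest Ints9 level of its group, and without it the distal site reached 1.59 on the log2 scale with an edgeR adjusted p of 0.0614, the lowest of any member in any setting. Wild type 1 had 41 reads at both sites together, and its share of 80.5% has a 95% Wilson interval of 66.0 to 89.8%; such intervals cover counting error only.

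Ints3 encodes a subunit that Integrator shares with the SOSS complex, which binds single-stranded DNA at sites of damage. Its sites in the 3′-most exon lie 34 bases apart, and the proximal one took most of the reads. The proximal site had 723, 717, 696, 999 and 677 reads in Cstf2 D50A 1 to 5, and 291, 890 and 752 reads in wild type 1 to 3. The distal site held 20.2, 20.8, 21.9, 14.6 and 17.1% of both in the mutants and 17.6, 16.0 and 16.4% in wild type. Mutants covered both sides of the narrow wild-type range, at a mean of 18.9 ± 2.98% (SD, n = 5) against 16.7 ± 0.823% in wild type (SD, n = 3), and the usage change of 0.22 did not pass (SE 0.211, edgeR adjusted p = 0.61; 0.33 without mutant 4).

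In level, Ints3 stood at 85.5, 72.8, 70.9, 83.2 and 73.3 CPM in Cstf2 D50A 1 to 5 and 39.5, 63.3 and 73.7 CPM in wild type 1 to 3 of the 3′-most exon table. The low value of wild type 1 stands out, whereas wild type 3 lay among the mutants. The log2 change was 0.39 (SE 0.189, edgeR adjusted p = 0.344), and without wild type 1 it was 0.16 (edgeR adjusted p = 0.731). Taken alone, the distal site did not overlap between the genotypes, with 17.3, 15.1, 15.5, 12.2 and 12.5 CPM in the mutants against 6.93, 10.1 and 12.1 CPM in wild type. Mutant 4 and wild type 3 nearly touched at that site, and 2.01% of all sites in the table were separated in this direction. The edgeR log2 change was 0.58 (SE 0.215, adjusted p = 0.36; 0.40 without wild type 1).

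The upstream exon table gave Ints3 in a second way. Its summed level there was 120.9, 109.0, 106.0, 118.8 and 106.5 CPM in Cstf2 D50A 1 to 5 and 66.0, 96.1 and 105.7 CPM in wild type 1 to 3. All mutants lay above all wild-type libraries, and the nearest pair, mutant 3 and wild type 3, all but touched, in a table where 2.28% of all genes were separated in this direction. The exact permutation p of 0.0179 is the smallest that 5 against 3 animals allow, and it is not adjusted for the number of members. The log2 change of 0.33 had an edgeR adjusted p of 0.333 (SE 0.153), and it was 0.15 without wild type 1 (edgeR adjusted p = 0.717). Most reads ended in the 3′-most exon, 93.4, 89.1, 89.3, 92.2 and 90.5% in the mutants and 81.0, 88.6 and 92.5% in wild type. This share rests on wild type 1: the usage change was 0.44 with it (SE 0.323, edgeR adjusted p = 0.52) and 0.06 without it (edgeR adjusted p = 0.969). Without wild type 3 it was 0.79 (edgeR adjusted p = 0.155). The upstream site had 64, 111, 107, 99 and 86 reads in mutants and 84, 137 and 73 in wild type, a log2 change of -0.00017, and the 3′-most exon had a log2 change of 0.41 (SE 0.189, edgeR adjusted p = 0.346; 0.18 without wild type 1). Between 98.3 and 100% of the 3′-most exon reads fell on the pair of sites of the first table, so the tables repeat the same reads and are not independent.

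Ints6 encodes a subunit known to tether the phosphatase PP2A to Integrator. Of the 3 members in the upstream exon table, it is the one whose transcripts ended mainly in an upstream exon, with 251, 374, 297, 343 and 358 reads there in Cstf2 D50A 1 to 5, and 438, 521 and 296 reads in wild type 1 to 3. The 3′-most exon had 34, 23, 46, 49 and 46 reads in the mutants and 37, 48 and 24 in wild type. As a share, the 3′-most exon held 11.9, 5.79, 13.4, 12.5 and 11.4% of the reads in mutants 1 to 5 and 7.79, 8.44 and 7.50% in wild type 1 to 3. Mutants 1, 3, 4 and 5 lay above every wild-type animal and mutant 2 below all of them. The mean was 11 ± 3.01% in mutants (SD, n = 5) and 7.91 ± 0.479% in wild type (SD, n = 3), with an exact permutation p of 0.143 and a log2 change of 0.49 (SE 0.312, edgeR adjusted p = 0.456). Across all tested genes, the 3′-most exon held a median of 93.8% in wild type, and 2.52% of genes had a larger wild-type share in an upstream exon than Ints6.

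The level of Ints6 over both exons was 35.5, 42.5, 36.3, 36.6 and 47.7 CPM in Cstf2 D50A 1 to 5 and 70.7, 45.4 and 34.6 CPM in wild type 1 to 3. Wild type 1 was the highest by far while wild type 3 was the lowest of all 8 libraries. The log2 change of -0.34 (SE 0.211, edgeR adjusted p = 0.393) was -0.01 without wild type 1 and -0.54 without wild type 3 (edgeR adjusted p = 0.0934). For the sites of the 3′-most exon, counts were too low to place the site choice. The proximal site had 5, 4, 4, 12 and 4 reads in mutants and 6, 10 and 4 in wild type. The distal site, 17245 bases further on, had 26, 15, 35, 29 and 42 in mutants and 31, 35 and 16 in wild type. The Wilson interval of the distal share in mutant 2, 79.0%, ran from 56.7 to 91.5%, and a difference between the genotypes was not detectable at this depth (log2 change 0.30, SE 0.543, edgeR adjusted p = 0.797; 0.04 without mutant 5 and 0.72 without mutant 4). Serpine3 overlaps the annotated Ints6 locus, which is a limit to how its reads can be assigned.

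**Figure D3:**
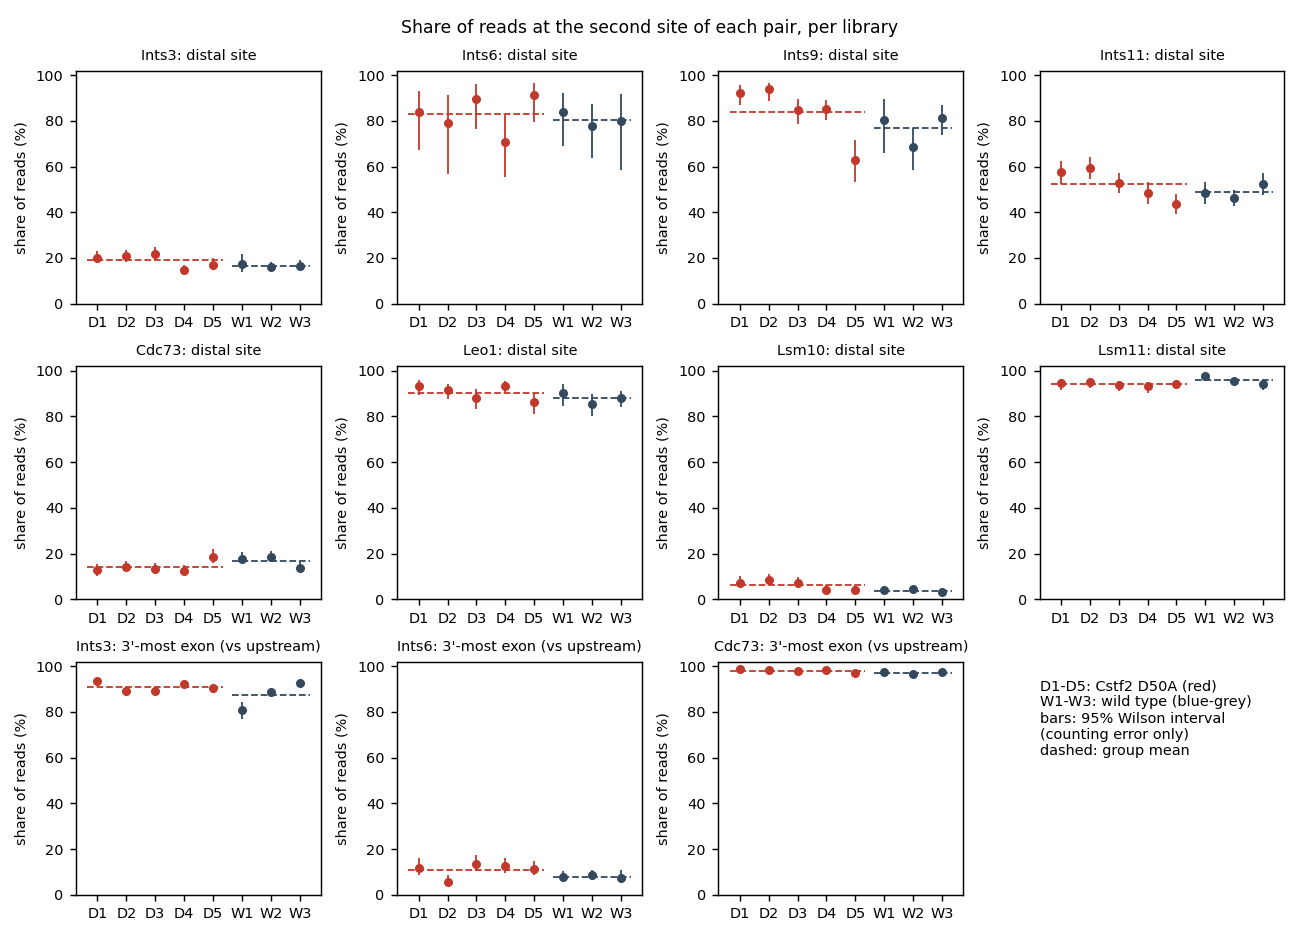
Share of reads (%) at the second site of each pair in every library, the distal site for the 3′-most exon table and the 3′-most exon for the upstream exon table, with 95% Wilson intervals and group means as dashed lines (red, Cstf2 D50A 1 to 5; blue-grey, wild type 1 to 3). The genotypes overlap in every panel, and the widest intervals are those of Ints6 and Ints9.

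Cdc73 encodes parafibromin, a PAF complex subunit and tumour suppressor. Within the 3′-most exon its proximal site had 582, 711, 684, 793 and 515 reads in Cstf2 D50A 1 to 5, and 697, 816 and 648 reads in wild type 1 to 3. The distal site held 12.6, 14.2, 13.2, 12.5 and 18.6% in the mutants and 17.8, 18.4 and 13.8% in wild type. Mutants 1, 3 and 4 lay below all wild-type animals, and mutant 5 above all of them. The mean was 14.2 ± 2.56% in mutants (SD, n = 5) and 16.7 ± 2.49% in wild type (SD, n = 3), and the log2 change was -0.28 (SE 0.222, edgeR adjusted p = 0.525), or -0.40 without mutant 5 (edgeR adjusted p = 0.216) and -0.43 without wild type 3. Low and high distal shares here divide the libraries partly as the granule cell markers do, which are at the wild-type level in mutant 5. The pair of sites took 78.1 to 83.6% of the reads counted for the exon, and the counts do not give where the rest ended.

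Against the upstream exon, the 3′-most exon of Cdc73 held 98.8, 98.3, 98.1, 98.2 and 97.1% of reads in Cstf2 D50A 1 to 5, against 97.3, 96.8 and 97.5% in wild type 1 to 3. Mutant 5 was within the wild-type range and the other 4 above it. At the upstream site itself the level was 1.25, 1.82, 2.01, 1.87 and 2.83 CPM in the mutants and 4.17, 3.19 and 2.60 CPM in wild type, from 10 to 40 reads a library. This was the lowest adjusted p of the upstream exon table's member sites, at a log2 change of -0.70 (SE 0.274, edgeR unadjusted p = 0.0254, adjusted p = 0.32), where edgeR called 0% of all sites (283 without mutant 5 and 288 without wild type 3, with no member among them) and 6.23% had an unadjusted p under 0.05 with a lower level in mutants. Mutant 5 had the highest value of the mutants, within the wild-type range, and without it the log2 change of the upstream site was -0.85 (edgeR adjusted p = 0.097). The usage change of 0.61 (SE 0.302) did not pass (edgeR adjusted p = 0.353; 0.79 and 0.121 without mutant 5). The summed level, 104.7, 109.2, 107.4, 103.6 and 98.5 CPM in mutants and 155.2, 99.3 and 104.0 CPM in wild type, differed mainly through wild type 1: its log2 change was -0.19 with that library (SE 0.15, edgeR adjusted p = 0.479) and 0.04 without it. In the 3′-most exon table the change was likewise -0.20 with wild type 1 and 0.04 without it. B3galt2, a galactosyltransferase gene listed in the tables, overlaps the annotated Cdc73 locus, and reads of the pair may not be fully separate.

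Leo1, another subunit of the PAF complex, had 93.2, 91.6, 88.2, 93.2 and 86.1% of its reads at the distal site in Cstf2 D50A 1 to 5 and 90.3, 85.6 and 88.1% in wild type 1 to 3. The genotypes interleaved, with means of 90.5 ± 3.18% in mutants (SD, n = 5) and 88.0 ± 2.35% in wild type (SD, n = 3) and a log2 change of 0.43 (SE 0.338, edgeR adjusted p = 0.525; 0.27 without wild type 2). Its level was 22.2, 22.0, 16.9, 26.2 and 19.4 CPM in mutants against 16.2, 12.1 and 26.9 CPM in wild type. Wild type held both the lowest and the highest value. The log2 change of 0.22 (SE 0.25, edgeR adjusted p = 0.624) turned to -0.03 without wild type 2 and stood at 0.60 without wild type 3 (edgeR adjusted p = 0.0922).

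Lsm10 encodes one of the proteins particular to the U7 ring, and it had the lowest adjusted p in site usage within the 3′-most exon among the 8 genes. Nearly all its reads ended at the proximal site, 358, 443, 465, 490 and 536 in Cstf2 D50A 1 to 5, and 532, 854 and 448 in wild type 1 to 3. The distal site had 28, 40, 35, 21 and 23 reads in mutants and 22, 38 and 14 in wild type. Its share was 7.25, 8.28, 7.0, 4.11 and 4.11% in mutants against 3.97, 4.26 and 3.03% in wild type. Mutants 1 to 3 lay above every wild-type animal, and mutants 4 and 5 within the wild-type range. The means of 6.15 ± 1.92% in mutants (SD, n = 5) and 3.75 ± 0.643% in wild type (SD, n = 3) gave an exact permutation p of 0.0893. The log2 change in usage of 0.69 had an edgeR adjusted p of 0.368 (SE 0.322, unadjusted p = 0.0553), and it was 0.83 without mutant 5 (edgeR adjusted p = 0.12).

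In level, Lsm10 had 36.4, 38.9, 39.8, 36.3 and 50.1 CPM in Cstf2 D50A 1 to 5, against 61.9, 53.3 and 37.8 CPM in wild type 1 to 3. Mutant 5 lay apart from the other mutants and next to wild type 2, whereas wild type 3 lay among mutants 1 to 4. The summed level averaged 40.3 ± 5.69 CPM in mutants (SD, n = 5) and 51.0 ± 12.2 CPM in wild type (SD, n = 3), a log2 change of -0.34 (SE 0.178, edgeR adjusted p = 0.352). It was -0.43 without mutant 5 (edgeR adjusted p = 0.143), -0.51 without wild type 3 (edgeR adjusted p = 0.0798) and -0.19 without wild type 1 (edgeR adjusted p = 0.731). The proximal site carried the fitted difference (log2 change -0.36, SE 0.186, edgeR adjusted p = 0.374), while the distal site had a log2 change of 0.33 (SE 0.33, edgeR adjusted p = 0.611; 0.06 without wild type 3).

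Lsm11, the U7 ring protein whose long N-terminal part contacts the cleavage factors, ended mainly at its distal site, with 331, 380, 457, 407 and 436 reads in Cstf2 D50A 1 to 5, and 328, 724 and 424 reads in wild type 1 to 3. The distal share was 94.6, 95, 93.7, 93.1 and 94.4% in mutants and 97.6, 95.6 and 94.2% in wild type. Mutants 3 and 4 were below the lowest wild-type animal, and the other 3 were within the wild-type range. The means were 94.2 ± 0.747% in mutants (SD, n = 5) and 95.8 ± 1.71% in wild type (SD, n = 3). This difference did not pass the test (log2 change -0.49, SE 0.298, edgeR adjusted p = 0.435), and single wild-type libraries moved it to -0.25 (without number 1) and -0.75 (without number 3). The level was 33.0, 32.2, 38.8, 31.1 and 41.4 CPM in mutants and 37.6, 45.2 and 36.8 CPM in wild type, a log2 change of -0.18 (SE 0.143, edgeR adjusted p = 0.491; -0.09 without wild type 2). Lsm10 and Lsm11, whose proteins sit in the same ring, thus had usage changes of opposite sign and level changes of the same sign, none past the test.

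**Figure D4:**
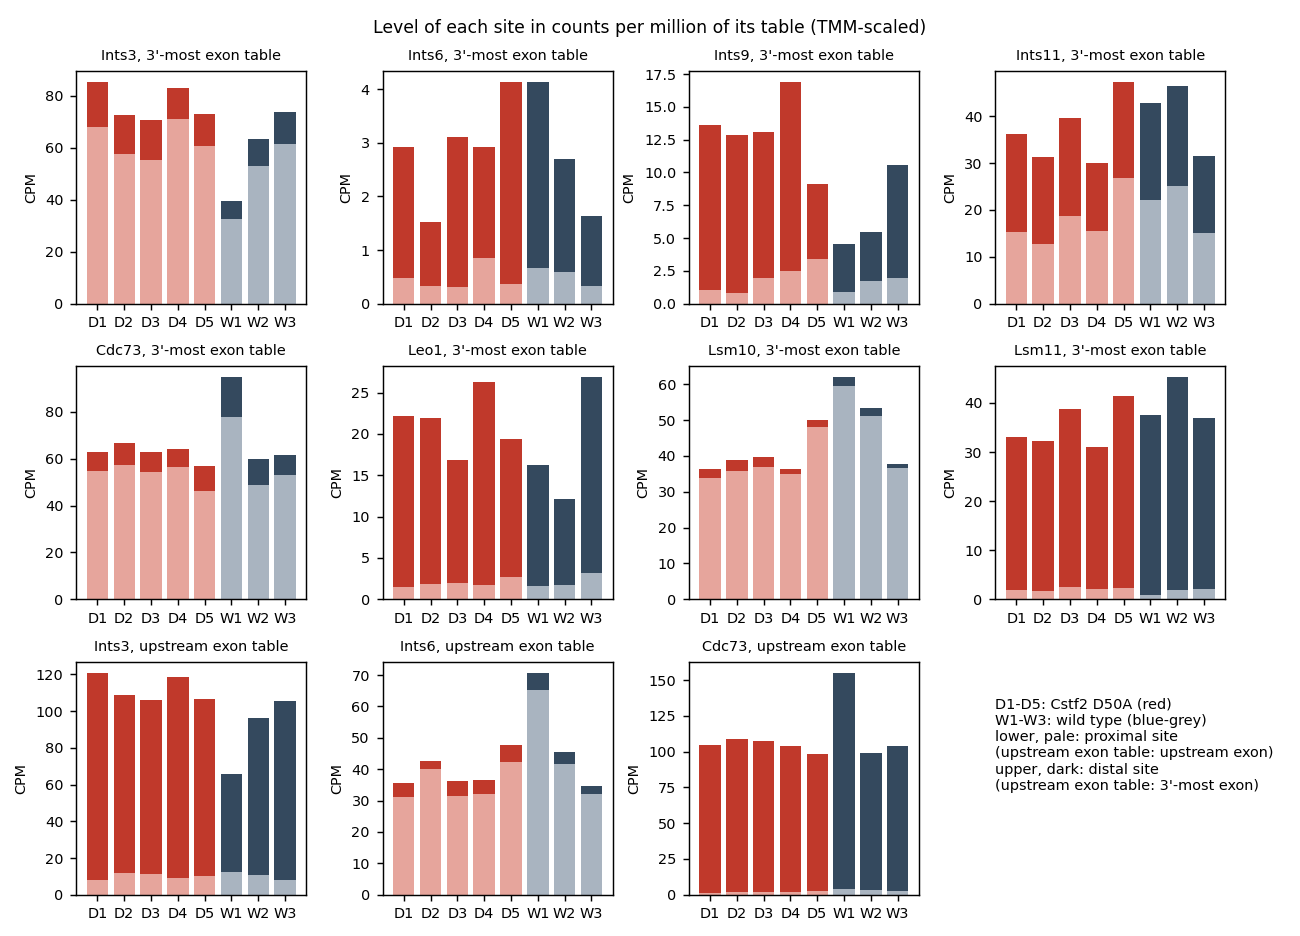
Level of each site in CPM of its table for every library, stacked (pale, proximal site or upstream exon; dark, distal site or 3′-most exon; red, Cstf2 D50A 1 to 5; blue-grey, wild type 1 to 3). Wild type 1 is low for Ints3 and high for Ints6 and Cdc73 in the upstream exon table, and Ints9 is carried by its distal site.

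Described by counts, 6 of the 8 members had a fitted usage change toward the distal site of the 3′-most exon, and 2 (Cdc73 and Lsm11) toward the proximal site, with a median log2 change of 0.26. Over all pairs of that table the median was 0.11, and 59.2% lay above 0. All 3 members of the upstream exon table had fitted changes toward the 3′-most exon, at a median of 0.49, where the median of all pairs was 0.17 and 62.1% lay above 0. In level 4 members were above 0 and 4 below, and the median of -0.02 stood beside 0.01 for all genes. Libraries decided several of these values: leaving out 1 of the 8 turned the sign of the level change of Cdc73, Ints6 (3′-most exon table) and Leo1.

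**Figure D5:**
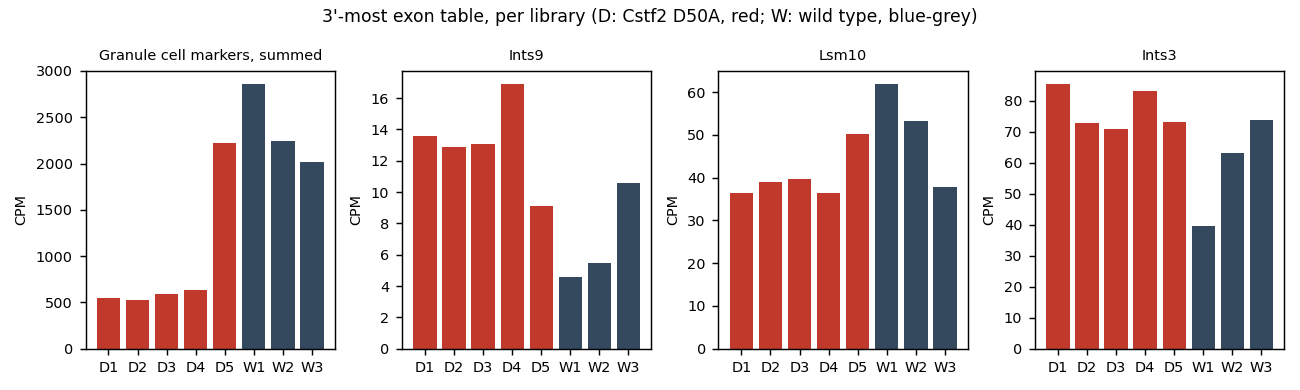
Summed level of 10 cerebellar granule cell markers (CPM, 3′-most exon table) in every library beside the level of Ints9, Lsm10 and Ints3 (red, Cstf2 D50A 1 to 5; blue-grey, wild type 1 to 3). The markers are low in mutants 1 to 4, at 526.2 to 631.3 CPM, and at 2227 CPM in mutant 5, the mutant with the least Ints9 and the most Lsm10. Wild type 3, with markers at 2015 CPM, departs from this split in both genes. Its Lsm10 level of 37.8 CPM lies among mutants 1 to 4, and its Ints9 level of 10.6 CPM lies above mutant 5 (9.15 CPM). Ints3 does not follow the split.

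The other genes of the same pathways also gave no call by edgeR. Of 15 further Integrator and SOSS genes, 6 were tested within the 3′-most exon and 7 against an upstream exon. Ints1, a large scaffold subunit, had 2.68 ± 0.679% of its reads at the distal site in mutants (SD, n = 5) and 1.39 ± 0.611% in wild type (SD, n = 3), a log2 change of 0.84 (SE 0.376, edgeR adjusted p = 0.365). Against the upstream exon, the 3′-most exon of Ints10 held 82.8 ± 4.03% in mutants and 75.7 ± 1.25% in wild type (log2 change 0.64, edgeR adjusted p = 0.285). Ints4, which holds the INTS9 and INTS11 pair, had a fitted change of the other sign, with 92.1 ± 2.46% in mutants and 96.6 ± 2.78% in wild type (log2 change -1.51, edgeR adjusted p = 0.257; -0.71 without wild type 2 and -2.38 without wild type 3). So had Ints13, with 91.7 ± 3.77% in mutants and 96.6 ± 1.43% in wild type (log2 change -1.17, edgeR adjusted p = 0.318). These 4 were the ones at an unadjusted p under 0.05, 1 of 6 and 3 of 7, where all genes had 13.6% and 15.3%, and none of these further Integrator and SOSS genes had such a p in level. Shares did not overlap between the genotypes for Ints1 and Ints10, and they overlapped for Ints4 and Ints13. Among all pairs, 2.53% in the 3′-most exon table and 4.23% in the upstream exon table were separated with a higher share in mutants.

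Among the other PAF complex genes, Ctr9, Rtf1 and Wdr61 were tested against an upstream exon and Rtf1 within the 3′-most exon. Of these, 0 had an unadjusted edgeR p under 0.05 in usage or level, nor did any pass adjusted. Rtf1, a loosely held subunit in mammals, had 125.2 ± 42.1 CPM in mutants (SD, n = 5) and 86.1 ± 40.2 CPM in wild type (SD, n = 3) in the 3′-most exon table, a log2 change of 0.54 (SE 0.337, edgeR adjusted p = 0.393). Ctr9, the scaffold of the complex, had 157.6 ± 35.6 CPM in mutants and 187.5 ± 32.8 CPM in wild type (log2 change -0.25, edgeR adjusted p = 0.451).

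Of 18 other histone pre-mRNA genes, 8 and 9 were tested in the tables and none passed adjusted. Slbp, which binds the histone stem-loop, had 91.4 ± 4.79% of its reads in the 3′-most exon in mutants (SD, n = 5) and 83.3 ± 6.02% in wild type (SD, n = 3), a log2 change of 1.11 (SE 0.473, edgeR adjusted p = 0.29). Sympk, the scaffold of the cleavage factors, had 63.0 ± 5.22% in mutants and 52.9 ± 1.63% in wild type (log2 change 0.61, SE 0.232, edgeR adjusted p = 0.257). Ncbp2, a cap-binding subunit, had 34.7 ± 6.11% at its distal site in mutants and 24.0 ± 8.07% in wild type (log2 change 0.79, edgeR adjusted p = 0.356; 0.48 without wild type 2). In level, Cpsf2, the inactive partner of the cleavage endonuclease, had 100.2 ± 14.1 CPM in mutants and 72.3 ± 19.4 CPM in wild type (log2 change 0.47, edgeR adjusted p = 0.338; 0.71 without wild type 3). Snrpe, a protein of the shared Sm ring, had 110.9 ± 4.82 CPM in mutants and 153.2 ± 54.4 CPM in wild type (log2 change -0.47, edgeR adjusted p = 0.338; -0.14 without wild type 1). At an unadjusted p under 0.05 there were 1 of 8 and 2 of 9 in usage, named above, and 2 of 8 and 1 of 9 in level, the last being Casp8ap2. All genes had 13.6% and 15.3% in usage and 14.6% and 15.3% in level. The share of Sympk and the level of Snrpe did not overlap between the genotypes. Slbp and Ncbp2 overlapped in share, and Cpsf2 and Casp8ap2 in level. Among all pairs of the upstream exon table, 4.23% were separated with a higher share in mutants. In the 3′-most exon table, 2.31% of all genes were separated with a lower level in mutants. Of the histone genes themselves, 7 replication-dependent and 8 replacement histone genes were tested within the 3′-most exon, and none passed. Reads of the replication-dependent ones are taken to come from polyadenylated forms, since the libraries prime on a poly(A) tail. The sequence around their sites was not read to check this.

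The genes whose levels followed those of 2 members most closely over the 8 libraries are given as a description, with no test. For Ints3 in the 3′-most exon table, out of 7376 genes averaging 50 reads or more, these were Spock2 (Pearson r = 0.988), Hcfc1 (0.988) and Prepl (0.987) on log2 CPM. For Cdc73 in the upstream exon table, out of 5631 genes, they were Carf (r = 0.996), Rpl34 (0.990) and Lcorl (0.977). All share the libraries and their depth, and for both members wild type 1 lies apart from the other 7 libraries.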

How the data were processed

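Per the labels, the reads came from QuantSeq 3′ mRNA-Seq REV libraries of total brain RNA. The build was mm9, and HTSeq 0.6.0, STAR 2.5 and FastQC 0.11.3 are listed without their roles, per the submitters' processing notes. The sources used here do not give how sites were picked or whether strand was used. The authors deposited whole-number read counts per site and library in 2 tables, which were used as deposited, and the other columns used are site positions. Their 3′-most exon counts repeat reads of the first table. All value columns were mapped to a sample, and 0 were left unused. Chi-square per degree of freedom between libraries of a genotype ran from 2.93 to 61.6 over 26 pairs, which leaves no library deposited more than once within a genotype, the scope of this check.

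A pair was tested with an average of 20 reads or more per library over both sites and 10 or more in all at each site (7876 of 7951 and 6001 of 6147 pairs). edgeR 4.0.16 (R 4.3.3) quasi-likelihood F tests were run for usage (site by genotype, library as a block), summed level and each site (TMM scaling), adjusted by Benjamini-Hochberg over the whole table at 0.05. A usage change above 0 means that mutants had a greater part of reads distal, or in the 3′-most exon. Standard errors were derived from the log2 change and F (change divided by root F). Single values were compared with exact permutation tests, two-sided, over all 56 assignments, whose smallest p is 0.0179; intervals are 95% Wilson. Alternatives were DESeq2 1.42.0, limma 3.58.1, RLE size factors, legacy quasi-likelihood, other read filters and each library left out. The scripts were tested on simulated data. A simulated log2 change of 1 in usage was recovered in 49% of 100 changed pairs in the 3′-most exon table and 37% in the upstream exon table. For a change of 2 the shares were 97% and 89%, and level changes of 1 were recovered in 100% and 98%. The simulation gave every gene the same spread between libraries beyond counting error, and it set no library of a genotype apart. These rates therefore cannot be carried over to the real libraries. There the Ints9 level change of 0.93 had an edgeR adjusted p of 0.338. The largest usage change of a member with all libraries, 0.81, is below the smaller simulated size, so such changes could be missed.

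The members and the gene lists were chosen with earlier results of these data known. Named were the 8 members, Cstf2, genes of each list with the most reads or an unadjusted edgeR p under 0.05, and the 3 genes most like the member with the most reads in each table. Lists were other Integrator, other PAF complex, other histone pre-mRNA, pausing and elongation, small nuclear RNA, replacement histone and replication-dependent histone genes, and markers of neurons, granule cells, Purkinje cells, oligodendrocytes, astrocytes, microglia, endothelium with pericytes, and choroid plexus with blood. An older symbol first listed for Ints15 was dropped, since the RefSeq table (GRCm38.p6), used for names and overlapping genes only, does not link them. No sequence is shown, as no genome of the files' build was used here.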

Additional observations from a re-analysis of the deposited data

Results flagged for a closer look

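In 6 of 52 sets of 5 mutant values, 1 library lay far from the other 4 by Dixon's test, which chance alone gives in about 1 of 20 independent sets. Mutant 5 was that library in 4 of them: it had a Cdc73 distal share of 18.64% (others 12.47 to 14.23%) and a Cdc73 proximal site at 46.17 CPM (others 54.41 to 57.23 CPM), and its Lsm10 level was 50.12 CPM at both sites (others 36.31 to 39.78 CPM) and 48.06 CPM at the proximal site (others 33.78 to 36.99 CPM). Mutant 5 is also the mutant with granule cell markers at the wild-type level, and the part of that in these values was not tested. Both others concern Ints6. Mutant 2 had 5.793% of its Ints6 reads in the 3′-most exon (others 11.39 to 13.41%), from 23 reads, and mutant 4 had a proximal site at 0.8528 CPM (others 0.3182 to 0.4718 CPM), from 12 reads. The 52 sets are not independent, since the share, the summed level and the single sites of a gene use the same reads. The count of 6 therefore cannot be weighed against the rate of 1 in 20.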

How the results depend on the processing

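None of the 8 genes was called in any of 645 fits over the main settings and alternatives, the lowest adjusted p being 0.0614 (Ints9 distal site, without wild type 3, edgeR). Of 601 log2 changes of these genes under alternatives (44 results), 579 kept their sign and 22, of 12 results, did not. Leaving out 1 library gave log2 changes from -0.332 to 0.03884 for the Cdc73 level in the 3′-most exon table and -0.3065 to 0.04298 in the upstream exon table, -0.2724 to 0.08853 for its proximal site and -0.2461 to 0.0817 for its 3′-most exon, each highest without wild type 1. For Ints6 the ranges were -0.1871 to 0.3836 (level, 3′-most exon table), -0.5101 to 0.002681 (proximal site), -0.1228 to 0.4877 (distal site) and -0.03269 to 0.4221 (3′-most exon). They were -0.03169 to 0.604 for the Leo1 level, -0.3084 to 0.2394 for its proximal site, -0.1375 to 0.06098 for the Ints11 distal site and -0.1569 to 0.118 for the Ints3 upstream site, which also turned to 0.01173 by limma and 0.01106 with the filter at 100 reads. The count of calls over all features, 0 by edgeR, was 21 (usage, 3′-most exon), 5 (usage, upstream exon), 26 (level, 3′-most exon), 30 (sites, 3′-most exon) and 40 (sites, upstream exon) by DESeq2. With 1 library left out it ran from 0 to 1 and 0 to 434 for usage, 0 to 69 and 0 to 64 for level, and 0 to 113 and 0 to 288 for sites, in the 3′-most exon and upstream exon tables in that order. Without mutant 5 these counts were 0, 434, 69, 64, 113 and 283 in the same order, and without wild type 3 they were 1, 260, 0, 0, 40 and 288; the cause was not tested. Ints6 had no value within the 3′-most exon under the filter at 100 reads. No paired analysis was possible because the labels give no shared replicate numbers. Depth limits Ints6 and Ints9 most.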

Other observations

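Genes of neighbouring pathways gave no call by edgeR in all 8 libraries. Of pausing and elongation genes, 15 were tested within the 3′-most exon and 13 against an upstream exon. Supt16, a subunit of the histone chaperone FACT, had 87.2 ± 4.02% of its reads in the 3′-most exon in mutants (SD, n = 5) and 74.5 ± 6.31% in wild type (SD, n = 3), with no overlap, a log2 change of 1.25 (SE 0.354, edgeR adjusted p = 0.231) that passed without wild type 3 (1.53, adjusted p = 0.0418) and without mutant 5 (1.33, adjusted p = 0.0394). Of all pairs in that table, 4.23% were separated in this direction. In those settings edgeR called 260 and 434 pairs, and without mutant 5 the genotypes also divide by granule cell markers. Setd2, the methyltransferase of histone H3 lysine 36, had 98.1 ± 1.16% in mutants and 99.3 ± 0.569% in wild type (log2 change -1.45, edgeR adjusted p = 0.288). Ccnt2, a cyclin of the elongation kinase, had 63.0 ± 3.68% at the distal site of that exon in mutants and 53.5 ± 5.66% in wild type, and Ell2, an elongation factor, had 98.1 ± 0.773% in mutants and 99.1 ± 0.156% in wild type (edgeR adjusted p = 0.354 for both). Tcea1 was the one gene of this list at an unadjusted p under 0.05 in level, at 53.3 ± 10.4 CPM in mutants and 83.1 ± 34.0 CPM in wild type (log2 change -0.64, edgeR adjusted p = 0.319; -0.27 without wild type 1), 1 of 13 where all genes had 15.3%.

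Among genes of small nuclear RNA transcription and assembly, 16 and 9 were tested in the 2 tables. Gemin6, of the SMN complex, had 7.86 ± 3.14 CPM in mutants (SD, n = 5) and 2.36 ± 1.32 CPM in wild type (SD, n = 3), a log2 change of 1.77 (SE 0.458, edgeR adjusted p = 0.319) that passed without mutant 5 (1.97, adjusted p = 0.03). In that setting edgeR called 64 genes in level in the upstream exon table, and genotype cannot be told from the granule cell marker split. Ice1, of the little elongation complex at small nuclear RNA genes, had 19.1 ± 7.69 CPM in mutants and 9.44 ± 3.74 CPM in wild type in the upstream exon table (log2 change 1.01, edgeR adjusted p = 0.319). Snapc1, a promoter-binding subunit for these genes, had 21.3 ± 5.54% of its reads at the distal site in mutants and 11.6 ± 2.55% in wild type (log2 change 1.06, edgeR adjusted p = 0.354). Of the replacement histones, 8 and 3 genes were tested: H2afy, the macroH2A1 gene, had 94.0 ± 1.54% of its reads in the 3′-most exon in mutants and 90.2 ± 0.521% in wild type, with no overlap (log2 change 0.78, edgeR adjusted p = 0.238; 0.93 and 0.0393 without mutant 5). As for Supt16, 4.23% of all pairs in the table were separated in this direction, and 434 pairs were called without mutant 5. H1f0, a linker histone of cells that no longer divide, had 71.7 ± 11.9 CPM in mutants and 98.4 ± 9.65 CPM in wild type (log2 change -0.46, edgeR adjusted p = 0.338). Of the replication-dependent histones, 7 and 1 were tested, and Hist1h1c had 62.7 ± 5.65 CPM in mutants and 82.8 ± 22.4 CPM in wild type (log2 change -0.40, edgeR adjusted p = 0.338; -0.17 without wild type 1).

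Markers of other cell types in the 3′-most exon table, listed at 8 of 10, 4 of 8, 3 of 9, 3 of 8 and 4 of 10, summed to 3608 to 4523 CPM in mutants and 4204 to 5289 CPM in wild type for oligodendrocytes, 3077 to 3562 and 3850 to 4169 CPM for astrocytes, 213.9 to 265 and 212.9 to 278.4 CPM for microglia, 206 to 532.9 and 169.6 to 360.6 CPM for endothelium with pericytes, and 5180 to 8678 and 5542 to 10909 CPM for choroid plexus with blood, mutants before wild type in each. The astrocyte sums did not overlap between the genotypes. In the upstream exon table they were likewise apart, at 2944 to 3804 CPM in mutants and 3888 to 5051 CPM in wild type. Among all single genes, 2.31% in the 3′-most exon table and 2.5% in the upstream exon table were separated with a lower level in mutants.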
